A study of Mus musculus with 36 samples.

Results

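The mitosis genes were 37 genes for proteins that carry a cell into mitosis, build the spindle, hold chromosomes on it, release them at anaphase and divide the cell. They were taken by name, in a choice made with earlier results of these data known. Each was found in 1 row of the 53421 genes of the count table. Each was also in 1 row of the 52416 genes of the TPM table (a level scaled to transcript length and library size). RNA was sequenced from a mouse fibroblast-like chondrocyte line, which is a single conditionally immortalised wild-type line, so that all libraries shared 1 cell origin. Pooled siRNA against Ift88, which codes for a part of the machinery that builds cilia, was transfected in the IFT88siRNA groups and a pool with no target in the NT groups, at 50 nM by the sample labels and 10 nM by the methods. Libraries at 0 h came from cells that saw only medium, and the others from cells given 10 ng/ml of the inflammatory cytokine IL-1β for 1, 2, 4, 8 or 24 h. The study asked how loss of IFT88 alters the response to IL-1β. The 6 times and 2 siRNA groups made 12 conditions of 3 replicates, or 36 libraries.

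Most of these genes are transcribed late in the cell cycle, so that their RNA is high in G2 and mitosis and low in resting cells. CDK1 with cyclin A or B starts mitosis, Polo-like and Aurora kinases shape the spindle, the checkpoint delays anaphase until kinetochores are attached, and the anaphase-promoting complex (APC/C) with separase ends it. Repression of many of them is credited to the DREAM complex, which binds the cell cycle genes homology region (CHR) in promoters, and their activation in G2 to B-MYB and FOXM1, often next to CCAAT boxes bound by NF-Y.

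Total counts on genes were from 19337022 to 38304127 per library (median 21672803.5 in NT and 25873754 in IFT88siRNA), and the members had from 297 to 21539 reads in a library with a median of 2463, so all 37 passed the filter on low counts in every fit. Over 36 pairs of replicates, the chi-square divided by its degrees of freedom ran from 1.71 to 10.9, where 1 is counting error alone, so no pair was 1 library given in duplicate. Ift88 itself was at 5.83 to 10.2 CPM (counts scaled to library size) in NT and 1.43 to 3.1 in IFT88siRNA, with no overlap. Of 12 cartilage markers, 5 (Acan, Col9a1, Col9a2, Matn1 and Matn3) were under 1 TPM in every library. The 12 summed to 88.6 to 90.2 TPM in NT at 0 h (32.8 to 161 over all libraries). Among the others in NT at 0 h, Col11a1 was at 43.4 to 47.7 TPM, Sox9 at 10.7 to 12.1 and Cnmd at 0.123 to 0.247. The 10 fibroblast markers summed to 4820 to 5140 TPM in NT at 0 h. Under 1 TPM in every library were 6 of 8 leukocyte, 3 of 5 endothelial and 4 of 6 epithelial markers. Of the leukocyte markers, Cd68 was at 9.41 to 12.3 and Lyz2 at 1.55 to 2.62 TPM in NT at 0 h. Nothing in the labels or methods says whether replicates came from separate cultures, so p-values measure the spread between these libraries, which may be technical.

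The mitosis genes were among the more abundant RNAs before IL-1β. In NT at 0 h, their TPM percentile among genes with a mean TPM above 0 there was 76.8 for Cenpf, 99.2 for Cdk1 and 94.3 at the median. Cdk1, the kinase that starts mitosis, was at 548.9, 542.0 and 571.0 TPM in the 3 NT libraries at 0 h. Mki67, which codes for the coat of mitotic chromosomes and is used as a marker of cycling cells, was at 83.42, 87.75 and 82.86 TPM in cells that the labels call quiescent. Averaged over the 36 libraries, Cdk1 had the highest level with 447.3 TPM, Anln, an actin-binding protein of the cleavage furrow, had 227.8 TPM, and Cenpf, a kinetochore protein, had the lowest with 14.21 TPM.

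Summed over the 37 genes, the level fell after IL-1β and had returned by 24 h in both siRNA groups. In NT, the summed level was 4981.1 to 5057.0 TPM at 0 h and 2738.2 to 2803.4 TPM at 2 h, which is 55.2% of the 0 h mean. It was 67.4% of the 0 h mean at 1 h, 57.3% at 4 h, 67.6% at 8 h and 95.9% at 24 h. In IFT88siRNA, it was 4672.2 to 4910.1 TPM at 0 h, and 67.8%, 54.8%, 58.5%, 69.9% and 102% of that mean at the 5 later times in order. The libraries at 1, 2, 4 and 8 h were all below those at 0 h and 24 h of the same siRNA group. These TPM sums had no further scaling between libraries. With such scaling (TMM), the mean log2 CPM of the 37 genes in NT fell as well. It was 7.063 to 7.099 at 0 h and 6.329 to 6.414 at 2 h. The RNA came from whole cultures, so fewer dividing cells and less RNA per cell cannot be told apart, and the study has no time-matched culture without IL-1β, so exposure to IL-1β and time since 0 h cannot be told apart either.

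**Figure D1:**
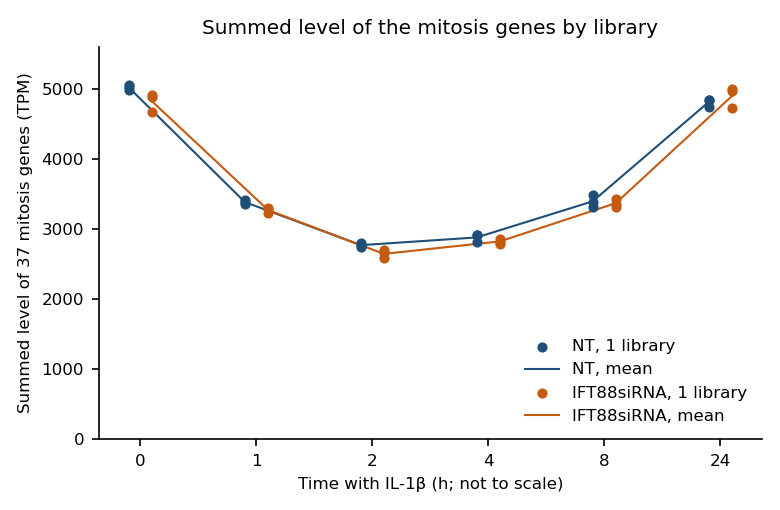
Summed level of the 37 mitosis genes (TPM, vertical axis from 0) in each library against time with IL-1β (h, spaced evenly), with points for libraries and lines for the means of NT and IFT88siRNA. Both groups are high at 0 h (NT mean 5022.0), lowest at 2 h (NT mean 2770.0) and high again at 24 h (NT mean 4814.0).

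Gene by gene, 23 of the 37 mitosis genes fell in NT at 2 h and none rose, against 14.3% of all genes called lower and 13.0% called higher. A call needed both a fold change over 1.5 and an adjusted p under 0.05 from edgeR's quasi-likelihood F-test, with Benjamini-Hochberg adjustment over all genes tested. Of all genes, 16048 were tested. The median log2 change at 2 h was −0.672 over the mitosis genes and −0.01 over all genes. At 1 h, 4 members were called lower (Ccna2, Cenpa, Cenpf and Ube2c), against 9.45% of all genes, with a median of −0.396. At 4 h, 22 members were called lower, against 12.4% of all genes, and 1 member, Pttg1, was called higher, against 16.3%. At 8 h, 13 members were called lower, against 7.87% of all genes, and Pttg1 was still higher, against 11.8%. At 24 h, 0 members were called, against 16.3% of all genes. An adjusted p under 0.05 in edgeR, with no fold threshold, was found for 12 members, against 44.9% of all genes. The 5 time points tested together called 32 of 37 members, against 50.0% of all genes, and left out Anln, Cdca8, Cdk1, Mad2l1 and Tpx2, whose adjusted p was under 0.05 but whose change stayed within 1.5-fold at every time. All these comparisons share the 3 NT libraries at 0 h. At 1 h, the count was 7 without the libraries of replicate 1, a run for which the share of all genes is not given. It was 10 with upper-quartile scaling, against 11.6% of all genes called lower. Limma on the TPM values gave 19 to 22 lower, against 4.5% to 11.9% of all genes.

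**Figure D2:**
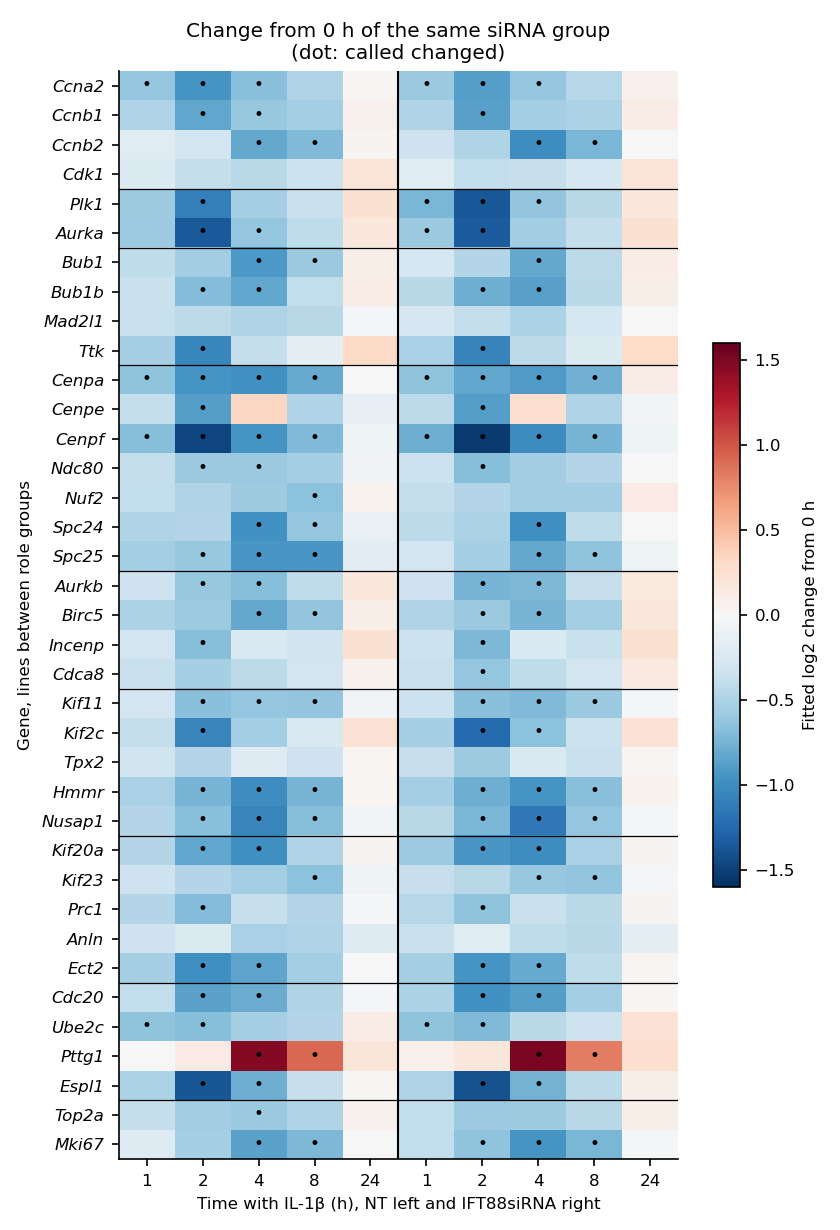
Fitted log2 change from the 0 h libraries of the same siRNA group (colour scale) for each of the 37 mitosis genes (rows, with lines between role groups) at 5 times with IL-1β (h) in NT (left) and IFT88siRNA (right), with a dot where a gene was called changed. Blue fills nearly all cells from 1 to 8 h, Pttg1 is red at 4 h (1.46 in NT) and 8 h (0.91), and no cell at 24 h has a dot.

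Cenpf, Espl1 and Aurka had the largest falls in NT, each at 2 h. Aurka, on the minus strand of chromosome 2 (172356190 to 172370535 in GRCm38), codes for Aurora A, the kinase of the spindle poles. It was at 74.2, 75.4 and 77.6 CPM at 0 h and at 31.24, 27.33 and 31.22 CPM at 2 h in the NT libraries. The libraries of the 2 times did not overlap, and the log2 change was −1.34 ± 0.054 (SE; edgeR adjusted p = 1.6e-16). Espl1, on the plus strand of chromosome 15 (102296266 to 102324357), codes for separase, the protease that cuts cohesin at anaphase. It went from 143.3, 131.1 and 142.4 CPM to 57.52, 52.83 and 51.47 CPM, a log2 change of −1.37 ± 0.060. Cenpf, on the minus strand of chromosome 1 (189640606 to 189688086), went from 127.2, 131.6 and 126.4 CPM to 46.1, 48.73 and 44.54 CPM, a log2 change of −1.47 ± 0.059. At 2 h, Aurka was thus at 39.5%, Espl1 at 38.8% and Cenpf at 36.2% of its mean at 0 h.

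The promoters of these 3 genes are shown because each holds both words by which late cell cycle promoters are usually recognised. The windows are those of RefSeq for GRCm38, with 300 bases of which 250 lie before the start site, and capitals mark the box CCAAT, which reads as ATTGG where it is on the other strand, and the CHR word TTTGAA. For Aurka, the stretches are chr2:172370571-172370630 and chr2:172370521-172370550 on the minus strand, with CCAAT starting 51 and 19 bases before the start site and TTTGAA at base 33 after it. The stretch of Cenpf is chr1:189688067-189688226 on the minus strand, with CCAAT at 132 and 71 bases before the start site and TTTGAA at base 3 after it. That of Espl1 is chr15:102296233-102296292 on the plus strand, with CCAAT on the other strand at 44 bases and TTTGAA at 27 bases before the start site. All these positions count from the RefSeq start site. For Aurka and Espl1 it is not the gene start of the GENCODE annotation given above.
Aurka, first stretch: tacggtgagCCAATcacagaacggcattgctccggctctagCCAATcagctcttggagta
Aurka, next stretch: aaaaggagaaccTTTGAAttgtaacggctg
Cenpf: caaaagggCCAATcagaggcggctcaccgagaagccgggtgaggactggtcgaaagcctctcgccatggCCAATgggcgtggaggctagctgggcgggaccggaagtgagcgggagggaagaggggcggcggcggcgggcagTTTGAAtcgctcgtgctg
Espl1: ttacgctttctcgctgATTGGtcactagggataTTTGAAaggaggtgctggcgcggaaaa

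RefSeq windows were found for 31 of the 37 members (33 windows in all), and not for Aurkb, Ccna2, Incenp, Kif20a, Spc24 and Tpx2. A CHR word (TTTGAA or TTCGAA, either strand) was in 26 of the 33 windows, or 78.8%, against 19.2% of all 32851 windows. CCAAT on either strand was in 75.8% against 37.4%, and both words were in 69.7% against 7.52%. At least 1 of the 4 E2F words searched (TTCCCGC, its variant TTCGCGC, the further word TTGCCGC and its variant TTGGCGC, on either strand) was in 18.2% against 9.57%, in the windows of Ccnb1, Cdk1, Ect2, Hmmr and Mki67. The 10 members whose windows did not hold CCAAT and a CHR word together were Anln, Birc5, Ccnb1, Cenpe, Kif2c, Mad2l1, Ndc80, Nuf2, Nusap1 and Pttg1. None of the words searched contains another. A word in a window is a match of letters only and does not show that a factor was bound there.

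**Figure D3:**
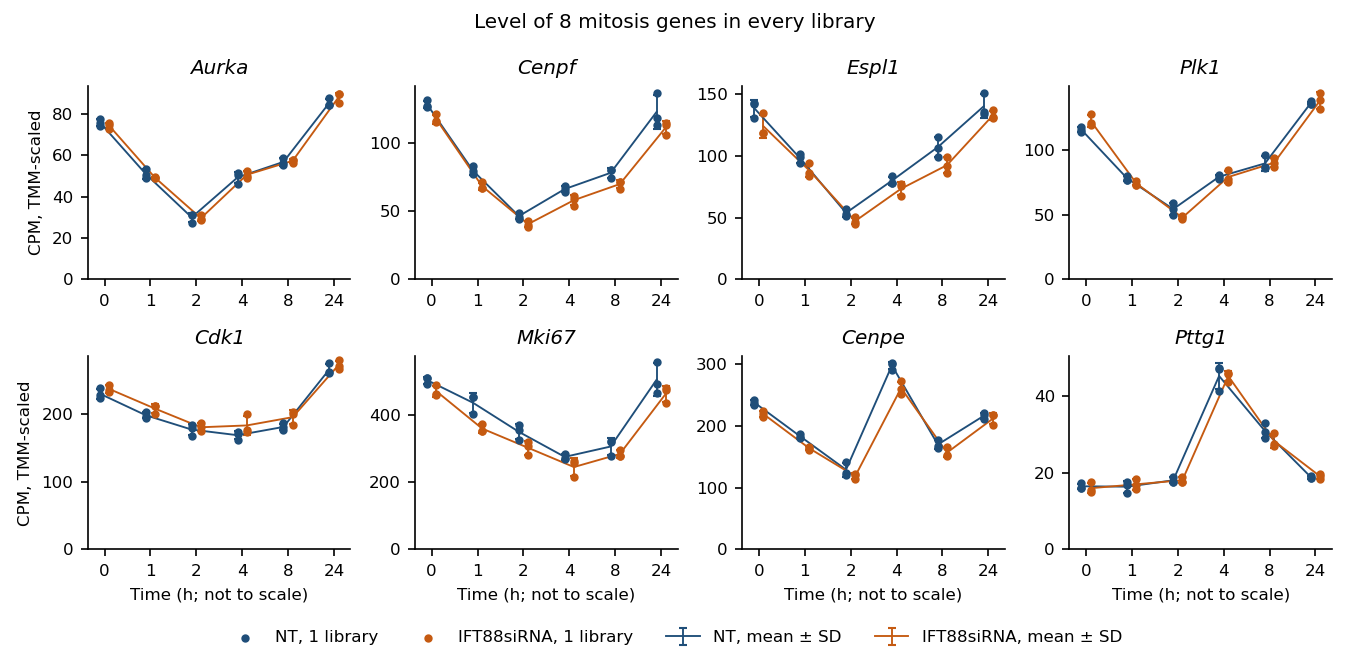
Level of 8 mitosis genes (CPM with TMM scaling, each axis from 0) against time with IL-1β (h, spaced evenly), with points for the 3 libraries of NT and of IFT88siRNA at each time and lines with bars for the mean ± SD. Aurka, Cenpf, Espl1 and Plk1 are lowest at 2 h, Cdk1 and Mki67 have a shallower trough, Cenpe is lowest at 2 h and highest at 4 h, and Pttg1 is highest at 4 h (45.08 CPM in NT against 16.42 CPM at 0 h).

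The genes did not all reach their lowest level at the same time. By mean CPM in NT, 17 members were lowest at 2 h, 17 at 4 h, Nuf2 and Kif23 at 8 h and Pttg1 at 1 h. Some of these were near ties, as for Ndc80, at 66.4% of its 0 h mean at 2 h and 66.1% at 4 h. In IFT88siRNA, 20 members were lowest at 2 h, 13 at 4 h, 3 at 8 h and 1 at 0 h. Plk1, the Polo-like kinase, was at 117.8, 115.6 and 113.5 CPM at 0 h, 59.3, 54.25 and 49.43 CPM at 2 h and 80.84, 79.11 and 77.93 CPM at 4 h, so that the libraries at 4 h were between those of the other times. Mki67 took the later course, with means of 503.7 ± 10.48, 349.9 ± 22.49 and 275.4 ± 8.647 CPM at 0, 2 and 4 h (SD, n = 3). Ccnb2, a cyclin B, was at 81.8% of its 0 h mean at 2 h and 56.4% at 4 h, while Ccna2, cyclin A2, was at 52.1% and 62.8%. A contrast of 4 h with 2 h, added after these values were seen, called 5 members higher in NT, against 16.6% of all genes, and none lower, against 10.5%. The 5 higher ones were 13.5% of the members, a share no larger than that of all genes. They were Pttg1 (log2 change 1.34), Cenpe (1.22), Aurka (0.73), Ttk (0.66) and Espl1 (0.59). By adjusted p alone, edgeR put 15 members higher at 4 h than at 2 h, against 31.2% of all genes, and 11 lower, against 30.1%, with Ccnb2 (−0.52), Spc24 (−0.49) and Nusap1 (−0.39) at the lower end.

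Pttg1 was the only member called higher after IL-1β. It codes for securin, which holds separase inactive until the APC/C destroys it. Its levels in the NT libraries were 16.05, 15.99 and 17.24 CPM at 0 h, 17.58, 17.49 and 18.87 CPM at 2 h and 47.27, 41.07 and 46.91 CPM at 4 h. The libraries at 4 h were all above those at every other time, and the log2 change from 0 h was 1.46 ± 0.070 (SE; edgeR adjusted p = 3.5e-15). At 8 h it was still at 30.54, 28.98 and 32.81 CPM (log2 change 0.91) and by 24 h at 18.46, 19.21 and 18.69 CPM (0.19). Espl1, the separase that securin binds, moved the other way and was at 57.7% of its 0 h mean at 4 h. None of the words searched was in the RefSeq window of Pttg1, whose start site lies 270 bases from the outermost start in the GENCODE annotation, so the window leaves that start out.

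Cenpe, a kinesin that moves chromosomes along spindle fibres, was singled out after its values were seen, since it fell and rose within 4 h. In NT it was at 236.6, 240.9 and 233.9 CPM at 0 h, 124.0, 141.7 and 120.6 CPM at 2 h and 300.0, 300.3 and 290.3 CPM at 4 h. The 3 groups of libraries did not overlap. The fall at 2 h was called (log2 change −0.89 ± 0.048), and so was the step from 2 h to 4 h. The level at 4 h relative to 0 h stayed within 1.5-fold (log2 change 0.33, edgeR adjusted p = 1.1e-06), and 8 h brought a mean of 169.3 ± 6.721 CPM (SD, n = 3).

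Of the 4 genes for CDK1 and its cyclins, 2 (Ccna2 and Ccnb1) were called lower in NT at 2 h, against 14.3% of all genes. At 4 h, 3 were (with Ccnb2), against 12.4%. Cdk1 itself was not called at any time. It was at 227.9, 223.2 and 237.3 CPM at 0 h and at 172.8, 170.7 and 161.8 CPM at 4 h, which is 73.4% of the mean at 0 h, with no overlap between these times. Both spindle kinases, Plk1 (log2 change −1.10 ± 0.052) and Aurka, were lower at 2 h, and Aurka at 4 h (−0.61, and −0.57 without the libraries of replicate 2, which ends that call).

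The 4 checkpoint genes differed in size and time of change. Bub1b (−0.70) and Ttk (−1.05), proteins of the checkpoint at kinetochores, were lower in NT at 2 h, and Bub1 (−0.92) and Bub1b (−0.83) at 4 h, while Ttk stood at 76.0% of its 0 h mean by then. Mad2l1, which makes the signal that holds back anaphase, kept within 1.5-fold throughout. It was at 121.2, 122.9 and 124.9 CPM at 0 h and at 84.91, 88.92 and 85.84 CPM at 4 h, 70.4% of the mean at 0 h.

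Of the 7 centromere and kinetochore genes, 5 were called lower in NT at 2 h and 5 at 4 h. Of all genes, 14.3% were called lower at 2 h and 12.4% at 4 h. Cenpa, the histone variant that marks centromeres, fell at 1, 2, 4 and 8 h. It was at 125.0, 122.0 and 128.1 CPM at 0 h, at 62.5, 64.51 and 63.06 CPM at 4 h (log2 change −0.97 ± 0.059) and at 116.9, 122.2 and 135.5 CPM at 24 h. The 4 subunits of the NDC80 complex, which grips spindle fibres, had their lowest mean at 4 h or later in NT, with Ndc80 at 66.1%, Spc24 at 50.8% and Spc25 at 52.2% of the 0 h mean at 4 h and Nuf2 at 63.2% at 8 h. In the chromosomal passenger complex, which frees wrongly attached chromosomes, Aurkb (−0.61) and its scaffold Incenp (−0.68) were lower at 2 h, and Aurkb (−0.68) and Birc5, or survivin (−0.82), at 4 h. Birc5 was at 79.09, 81.05 and 80.57 CPM at 0 h and 43.25, 46.8 and 45.15 CPM at 4 h, and its change at 2 h (−0.58) was just under the fold threshold. Cdca8, or borealin, was at 69.6% of its 0 h mean at 2 h and was not called.

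Among the 5 spindle motors and microtubule proteins, 4 were lower in NT at 2 h and 3 at 4 h. The shares of all genes called lower were 14.3% and 12.4%. Kif2c, a kinesin that takes microtubules apart, had its lowest level at 2 h (48.1% of 0 h) and was at 68.0% at 4 h. Nusap1, which bundles spindle fibres, was at 63.1% at 2 h and 47.8% at 4 h (log2 change −1.06), and Hmmr at 60.0% and 50.1%. Tpx2, which activates Aurora A on the spindle, was not called at any time. Its NT libraries were at 240.7, 244.8 and 241.0 CPM at 0 h, 176.4, 177.8 and 172.5 CPM at 2 h and 221.5, 208.2 and 195.2 CPM at 4 h. Of the 5 genes of the central spindle and cytokinesis, Kif20a (−0.83), Prc1 (−0.70) and Ect2 (−0.98), the activator of RhoA at the furrow, were lower at 2 h. Anln changed less than 1.5-fold, with 628.8, 635.5 and 628.8 CPM at 0 h, 492.5, 500.6 and 512.3 CPM at 1 h, 533.8, 549.8 and 531.9 CPM at 2 h and 454.4, 436.7 and 426.2 CPM at 4 h (log2 change −0.51), none of which passed the fold threshold.

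The 4 genes of anaphase moved in both directions at 4 h, with Cdc20 (−0.80), the activator of the APC/C, and Espl1 (−0.78) lower and Pttg1 higher. Ube2c, the enzyme that brings ubiquitin to the APC/C, had already fallen by 1 h. It was at 111.5, 111.2 and 117.3 CPM at 0 h, 74.88, 71.56 and 70.84 CPM at 1 h (log2 change −0.65 ± 0.045) and 74.79, 70.28 and 68.52 CPM at 2 h. Of the pair of chromosome proteins, neither was called at 2 h and both were lower at 4 h, against 12.4% of all genes. Top2a, the topoisomerase that untangles sister DNA, was at 482.3, 514.1 and 493.4 CPM at 0 h and 333.9, 335.0 and 309.2 CPM at 4 h (−0.60, and −0.57 without the libraries of replicate 3, which ends that call).

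Reads were counted without regard to strand, and 7 members overlap a protein-coding gene on the other strand, so reads of the 2 genes cannot be told apart where they overlap. These are Ccna2 (with Exosc9), Nusap1 (Oip5), Cdc20 (Elovl1), Ube2c (Tnnc2), Prc1 (Rccd1), Kif20a (Cdc23) and Cdca8 (9930104L06Rik). TMM factors, which scale the libraries, moved with time, from 1.096 to 1.1157 at 0 h to 0.892 to 0.929 at 4 h, and their part in the changes was not tested. In the TPM values, which use no TMM factor, the NT mean was below that at 0 h for 37 of 37 members at 2 h and for 35 at 4 h, where Cenpe and Pttg1 were the exceptions. In NT at 2 h, limma on log2(TPM + 1) put the median of the members at −0.878 and that of all genes at −0.217, and called 33 members lower, against 18.1% of all genes.

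The mitosis genes were higher at 24 h than at 8 h, apart from Pttg1, and none was past 1.5-fold of its 0 h level at 24 h. A contrast of 24 h with 8 h, added after the values were seen, called 14 members higher in NT, against 3.15% of all genes, and 1, Pttg1 (−0.72), lower, against 10.2%. The median log2 change was 0.552 over the members and −0.026 over all genes, with the highest values for Cenpa (0.80), Hmmr (0.79) and Spc25 (0.76). Relative to 0 h, edgeR's adjusted p alone put 9 members higher at 24 h, against 21.7% of all genes, and 3 lower, against 23.2%. The highest was Ttk (log2 change 0.31), and Plk1 was at 137.6, 135.8 and 135.6 CPM at 24 h, above its 3 libraries at 0 h (0.24). Anln (−0.20), Spc25 (−0.17) and Cenpe (−0.14) were the 3 lower ones. In this fit, 14 of the 37 members were below 0 at 24 h, while by mean TPM 27 of 37 were below their 0 h level. The direction of small changes at 24 h thus differed between the counts with TMM scaling and the TPM values.

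In the IFT88siRNA cells, measured against their own 0 h libraries, most of the mitosis genes were also lower at 2 h and 4 h and none was called at 24 h. At 1 h, 6 members were called lower, against 8.25% of all 16129 genes tested, namely Aurka, Ccna2, Cenpa, Cenpf, Plk1 and Ube2c. At 2 h, 25 were lower, against 13.2%, with a median log2 change of −0.71. At 4 h, 21 were lower, against 13.3%, and Pttg1 was higher, against 16.0%. At 8 h, 9 were lower, against 7.11%, and Pttg1 was higher, against 10.5%. At 24 h, 0 were called, against 14.2%, and 12 had an adjusted p under 0.05 in edgeR, against 39.8%. By adjusted p alone, 11 members were higher at 24 h, against 18.9%, and 1, Anln (−0.15), was lower, against 20.9%. In the fit on counts, 9 of 37 members were below 0 at 24 h, while by mean TPM 17 were below their 0 h level. The 5 times together called 31 members, against 48.2%, and left out Anln, Cdk1, Mad2l1, Nuf2, Top2a and Tpx2.

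Cenpf, Espl1, Plk1 and Aurka had the largest falls in IFT88siRNA, where 2 h brought Cenpf from 121.4, 116.0 and 115.3 CPM to 38.83, 42.8 and 40.18 CPM (log2 change −1.54 ± 0.055, SE). Espl1 went from 118.5, 135.1 and 118.9 CPM to 45.3, 50.45 and 46.31 CPM (−1.39), and Aurka from 72.77, 74.26 and 75.49 CPM to 28.43, 31.22 and 28.96 CPM (−1.33). Plk1 went from 118.9, 121.1 and 127.5 CPM to 48.76, 48.25 and 46.31 CPM (−1.36). These were again falls with no overlap between the times. Pttg1 was at 17.41, 14.87 and 15.49 CPM before IL-1β and had risen by 4 h to 43.64, 45.67 and 45.84 CPM, 283.0% of the 0 h mean. Cenpe had means of 218.5 ± 4.78, 118.3 ± 4.646 and 260.4 ± 10.6 CPM at 0, 2 and 4 h (SD, n = 3). From 2 h to 4 h, 6 members (16.2%) were called higher, against 16.0% of all genes, namely Aurka, Cenpe, Espl1, Plk1 (0.73), Pttg1 and Ttk. By edgeR's adjusted p alone, 16 were higher, against 30.2%, and 11 lower, against 29.4%. From 8 h to 24 h, 13 were called higher, against 2.54%, led by Cenpa (0.88). Plk1 at 4 h (−0.63) and Birc5 at 2 h (−0.59) were called, and both calls ended without the libraries of replicate 3 (both −0.57).

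The mitosis genes of IFT88siRNA cells were within 1.5-fold of those of NT cells at every time. No member was called at 0, 1, 2, 4, 8 or 24 h, where 2.23%, 2.66%, 0.496%, 0.432%, 0.692% and 1.15% of all genes were, nor in the 6 times together, where 5.19% were. DESeq2 called 0 members in these comparisons as well. Without adjustment, edgeR's p was under 0.05 for 11 members at 0 h, 11 at 1 h, 11 at 2 h, 6 at 4 h, 7 at 8 h and 2 at 24 h, against 32.1%, 32.4%, 17.2%, 17.9%, 21.1% and 22.2% of all genes. Of the 222 differences (37 genes at 6 times), the 95% interval was inside 1.5-fold (0.585 on the log2 scale) for 222, with a half-width of at most 0.189. In simulated data of this size, 99% of genes given a log2 difference of 1 and 95% of those given 0.75 were called at 0 h. In the same run, 7 unchanged genes were called. Smaller differences were not simulated, so the run does not show how often those would be found.

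Small differences below the fold threshold had adjusted p-values under 0.05 for a few members. At 0 h these were 4 members, against 19.5% of all genes, all lower in IFT88siRNA, namely Anln (log2 difference −0.15), Cenpe (−0.12), Cenpf (−0.13) and Espl1 (−0.16). At 1 h they were Anln, Cenpe, Cenpf, Espl1 and Mki67 (−0.29), against 19.0%, and at 4 h Cenpe alone (−0.20 with a 95% interval of −0.30 to −0.09), against 3.85%. Over the 6 times together, 7 members had an adjusted p under 0.05 in edgeR, against 31.8% of all genes. Their largest differences were −0.28 for Mki67, −0.22 for Cenpf, −0.21 for Espl1, −0.19 for Cenpe, −0.18 for Anln and −0.11 for Top2a, and 0.18 for Mad2l1, the member that was higher in IFT88siRNA. For Cenpf, the IFT88siRNA libraries at 1 h were at 66.73, 71.28 and 67.14 CPM and those of NT at 79.42, 83.01 and 77.04 CPM, with no overlap. Cdk1 had a difference of 0.04 at 0 h (95% interval −0.04 to 0.13) and the interval for Pttg1 at 4 h was −0.14 to 0.13. By adjusted p, the share of the members was below that of all genes at each of these times. Differences were below 0 for 24, 29, 31, 24, 21 and 15 of the 37 members at the 6 times in order. The median difference was largest at 2 h, with −0.053 over the members and 0.004 over all genes, and was 0.019 over the members at 24 h.

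**Figure D4:**
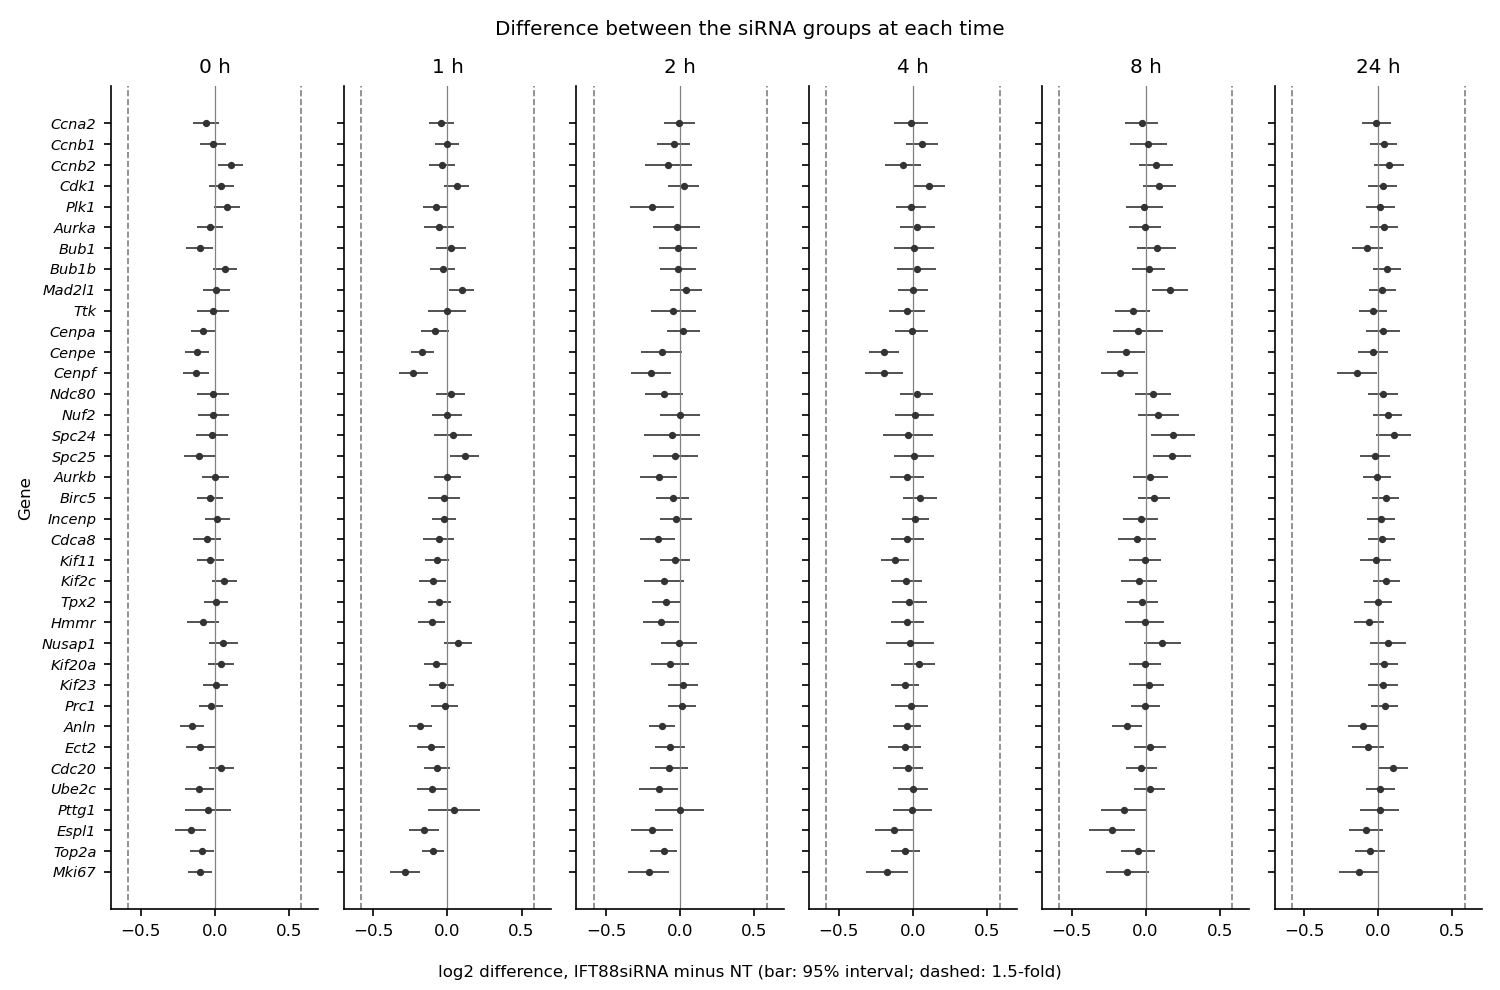
log2 difference of IFT88siRNA minus NT (horizontal axis) for each of the 37 mitosis genes (rows) at 0, 1, 2, 4, 8 and 24 h (panels), with bars for the 95% interval and dashed lines at 1.5-fold (0.585). All 222 intervals lie between the dashed lines.

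The change from 0 h was compared between the siRNA groups in 1 model of all 36 libraries, over the 5 times after IL-1β together. No member was called for a different response, where 1.2% of all 16710 genes were, and 3 had an unadjusted p under 0.05 in edgeR, against 16.8%. They were Kif2c (largest difference −0.17), Plk1 (−0.27) and Spc25 (0.30), with adjusted p-values of 0.28, 0.17 and 0.19. Plk1 at 2 h was at 48.76, 48.25 and 46.31 CPM in IFT88siRNA and at 59.3, 54.25 and 49.43 CPM in NT, which do not overlap, and its difference there was −0.19 (95% interval −0.34 to −0.04).

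Other genes of mitosis, listed by role beside the members, are given for the NT libraries at 2 h. Of all genes, 14.3% were called lower there and 13.0% higher. Among 24 other spindle and cytokinesis genes, 16 were called lower and none higher, with a median log2 change of −0.875, led by Troap (−1.64), Aspm, a protein of the spindle poles (−1.53), and Fam83d (−1.46). The mean of Aspm was 112.5 ± 5.147 CPM before IL-1β and 39.01 ± 1.62 CPM after 2 h (SD, n = 3). Of 32 other kinetochore genes, 15 were lower (median −0.511), among them Sgo1 (−1.08), which protects cohesion at centromeres. Of 20 other regulators of mitotic entry and exit, 8 were lower (median −0.465), with Ccnf, cyclin F (−1.64), Gtse1 (−1.35) and the APC/C inhibitor Fbxo5 (−1.11) in front. The condensin and cohesion genes had 4 of 16 lower (median −0.287).

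The subunits of the APC/C and the genes of DNA replication had medians near 0. The counts at 2 h stand against 14.3% of all genes called lower and 13.0% called higher in NT. Of 14 APC/C subunits, 1 (Cdc23, −0.65, which overlaps Kif20a on the other strand) was lower at 2 h, and the median was 0.003. Of 44 genes of DNA replication, which are mostly transcribed from G1 into S phase, Cdc7 (−1.14) and Gins3 (−0.87) were lower and Orc1 (0.77), a subunit of the origin recognition complex, was higher, with a median of −0.09. At 4 h, Mcm6, of the replicative helicase, was the only one called, where 16.3% of all genes were higher and 12.4% lower. It was at 661.6 ± 17.85 CPM against 365.3 ± 6.813 CPM at 0 h (log2 change 0.87). Of 18 transcription regulators of the mitosis genes, 0 were called at 2 h (median −0.241). At 4 h, 3 of them were lower, against 12.4% of all genes, and 1 was higher, against 16.3%. The lower ones were Rbl2, Nfyb (−0.66), a subunit of NF-Y, and Tfdp2 (−0.60). Rbl2, the pocket protein p130 of DREAM, was lower with 31.29 ± 1.085 CPM against 66.48 ± 0.662 CPM at 0 h (−1.08), and Lin54, the subunit that reads the CHR, was higher with 115.5 ± 3.533 CPM against 63.0 ± 3.506 CPM (0.88). At 24 h in NT, none of the genes in these 7 lists was called, against 16.3% of all genes.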

How the data were processed

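Poly(A) RNA of 36 libraries was sequenced as paired-end reads and aligned by the authors to GRCm38 with Hisat2 2.1.0. The authors deposited counts per gene from featureCounts (Subread 1.6.3, Ensembl annotation, default parameters, so without strand), with no normalization. The authors also deposited TPM values from Salmon 0.9.1. Libraries were grouped by their labels. The tests on counts used edgeR 4.0.16 in R 4.3.3 (TMM scaling, filterByExpr, two-sided quasi-likelihood F-tests, Benjamini-Hochberg adjustment over all genes). The siRNA groups were compared in the 6 libraries of a time point, times in the 18 libraries of a siRNA group, and the 6 differences between siRNA groups and the response in all 36. The SE is the absolute log2 change divided by the square root of F, and levels are CPM with TMM scaling. Depth was from 19337022 to 38304127 counts, and reads carry no molecular identifiers. SEs and 95% intervals come from the fits and include the spread between libraries.

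The members and gene lists were chosen with earlier results of these data known. Values per library are given for the member with the highest mean TPM in each role group and for up to 3 members with the largest called falls and rises in NT. In the other lists, up to 3 called genes with the largest change are named. Genes singled out after their values were seen are Cenpe and Mki67, and values of other members stand beside those of their role group. Gene positions came from GENCODE for GRCm38, promoters from RefSeq (GRCm38). Alternatives were DESeq2 1.42.0, its size factors, upper-quartile scaling, no filter, no fold threshold, the replicate number as a block, 1 model for all libraries, leaving out replicates, and limma 3.58.1 on TPM, with a pseudocount of 1 or 0.1, for genes at 1 TPM or more in at least 3 libraries or for all genes. The fits were tested on simulated data. In that for 2 h in NT, 99% and 91% of genes changed by log2 1 and 0.75 were called, and 5 unchanged ones. Figures were drawn with matplotlib 3.10.9.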

Additional observations from a re-analysis of the deposited data

How the results depend on the processing

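No call of a count or named gene changed direction under any alternative run. The sign of changes that were not called could differ, as in the TPM values at 24 h. Without the fold threshold, the calls rose to 36, 36, 37, 37 and 12 members at the 5 times in NT (against 51.7%, 60.9%, 60.9%, 52.4% and 44.9% of all genes), to 36, 37, 37 and 12 in IFT88siRNA at 1, 4, 8 and 24 h (43.2%, 59.8%, 47.8% and 39.8%), to 4, 5 and 1 for the siRNA groups at 0, 1 and 4 h and 7 for all times together (19.5%, 19.0%, 3.85% and 31.8%), to 26 and 27 for 4 h against 2 h (61.4% and 59.7%), and to 37 for 24 h against 8 h in each siRNA group (43.4% and 34.9%). Upper-quartile scaling moved the median of all genes at 4 h in NT by −0.137. At 1 h it gave 10 calls in NT and 11 in IFT88siRNA, against 19.4% and 16.0% of all genes called in either direction. The TPM values gave 19 to 22 in NT and 17 in IFT88siRNA at 1 h, against 6.93% to 17.7% and 5.18% to 14.4%. With a pseudocount of 0.1, they gave 22 at 8 h in NT, against 16.5%. With no filter on low counts, 24 h against 8 h in NT gave 23. The share of all genes is not given for that setting or for the runs without a replicate, so those counts stand without it. The calls by the other alternatives were within 1.5 times of those reported, 282 in all against 28 that were not. Leaving out replicates gave 4 to 7, 20 to 25, 19 to 24 and 12 to 15 calls in NT at 1, 2, 4 and 8 h, 6 to 7, 24 to 26, 20 to 27 and 7 to 11 in IFT88siRNA, 4 to 6 and 6 to 7 for 4 h against 2 h, 12 to 19 and 14 to 15 for 24 h against 8 h, 30 to 32 (NT) and 31 to 34 for the times together, and 0 between the siRNA groups. Of the values of single genes, 677 kept their side of the thresholds, 99 passed them only under an alternative and 4 lost them, each without 1 replicate. The cause of these moves was not tested.

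When the replicate number entered as a block, calls were 23 at 2 h in NT and 25 in IFT88siRNA, and 0 between the siRNA groups, as without it. The block changed no count of members, and the share of all genes is not given for that run. Few libraries with the same number deviated together (2 of 18 pairs between siRNA groups and 12 of 90 between times had a correlation over 0.1). The highest value was 0.404, between replicate 3 of IFT88siRNA at 4 h and at 8 h. With 3 libraries per condition, these correlations cannot show whether the numbers stand for shared cultures or batches. Fold changes under 1.5 could be called by the adjusted p alone but not by the rule used, and 3 libraries per condition limit the precision of each.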
